A study of Bos taurus with 68 samples.

Results

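The heat shock proteins, chaperonins and their cochaperones were followed in bovine liver through 68 cDNA clones of 55 genes, out of 5693 named clones in the larger of the deposited tables. A clone was taken when its updated gene symbol began with HSP, DNAJ, BAG and a digit, FKBP, PPI and a letter from A to H, or CCT and a digit from 2 to 8, or when it was TCP1, STIP1, AHSA1, CDC37 or ST13. No measured value entered that choice. Of these clones, 66 clones of 53 genes had values in at least 3 cows on each day and were tested. A single clone each of BAG2 and DNAJB2 was too often missing, with 22 and 23 of the 30 liver samples measured. Another 2 clones, annotated to more than 1 gene (PPIA or DNAJC10 with an uncharacterised locus), were left out. The tested clones fell into HSP90 (3 genes), its cochaperones AHSA1 and CDC37, HSP70 (6 genes), DNAJ (18 genes), BAG (3 genes), mitochondrial HSP60 and HSP10 (2 genes), the cytosolic chaperonin TRiC (4 genes), small heat shock proteins (3 genes), FKBP (3 genes) and cyclophilins (7 genes). HSPG2 codes for the basement membrane proteoglycan perlecan and HSPBAP1 for a partner of HSPB1. Both share the letters but are no heat shock proteins. They form a group of their own but count in every total and median over members. HSPA5, HSPH1, BAG3, FKBP5, DNAJA1, STIP1, ST13, TCP1, CCT5, CCT6A and CCT7 were not analysed here.

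Molecular chaperones hold unfolded protein chains out of aggregates and use rounds of ATP binding to let them fold. DNAJ proteins deliver clients to HSP70, BAG proteins release the nucleotide from HSP70, and HSP90 finishes kinases and steroid receptors with the help of cochaperones such as CDC37 and AHSA1. TRiC is a ring chaperonin that folds actin and tubulin, HSP60 with its lid HSP10 does the same work in the mitochondrial matrix, and small heat shock proteins bind unfolding chains without ATP. FKBP and cyclophilin proteins are peptidyl-prolyl isomerases, which turn proline bonds and also bind the immunosuppressants FK506 and cyclosporin. Around calving the liver of the dairy cow takes up fatty acids from adipose tissue and raises its output of glucose.

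The samples were liver RNA of 5 cows, numbered 6934, 6983, 7079, 7186 and 7188, taken on days -65, -30, -14, 1, 14, 28 and 49 relative to parturition. The labels give no treatment, diet, breed or age, so the day was taken as the factor that sets the groups apart. Which cows were measured also differs between some days. The larger table has all 5 cows on days -65, -30, 1 and 28, 4 cows on day 49, and 3 cows on days -14 and 14. Each liver sample was labelled with Cy3 on one array and with Cy5 on another, against a common reference RNA whose makeup the labels do not give. Values here are log2 ratios, each the mean of the 2 arrays of a cow on a day, with every array centred on its median. A value of -1 is thus a spot at 0.5 times the reference relative to the middle of the array, and a ratio says nothing about which of 2 genes has more transcript. In bulk tissue, fewer cells of a type and less RNA per cell cannot be told apart.

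The direction of the ratio rests on the markers of the tissue. All 6 measured hepatocyte markers (APOA1, ASGR2, ASS1, CP, SLC10A1 and TF) had a mean above 0 when the ratio was read as Cy5 over Cy3, with a median of 3.12, and all 6 measured genes not enriched in liver lay below 0. The direction is therefore likely and not stated by the labels, and every sign below would turn with it. The 2 dye-exchanged arrays of a pair correlated below 0 before turning in 25 of the 30 pairs of the larger table. Among these, r ran from -0.53 in cow 6983 on day 28 to -0.0026 in cow 6934 on day 28, so some pairs hardly opposed. The 5 pairs that did not oppose were cow 6934 on day 49, cow 6983 on day 14, cow 7079 on day 1, cow 7186 on day 14 and cow 7188 on day 49. The second table holds 4 further liver samples on another print of the array, and over 5280 clones the mean ratios of the 2 tables correlated across clones with r = 0.709. Between the tables the mean ratio of a member differed by over 1 log2 unit for 8 of the 66 clones (12.1%, against 8.60% of all tested clones), and 21 of the 66 means lay on opposite sides of 0. The tables differ in array print and in liver samples, whose parts in these differences cannot be told apart.

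Several cytosolic folding machines lay below the reference in every cow, namely HSP90AA1, HSPA8, HSPA4, HSPA14 and all 4 measured TRiC subunits. HSP90AB1 and HSPA1A lay close to it on average over the dye exchange. HSP90AA1, the inducible cytosolic HSP90, had a mean log2 ratio of -1.48 ± 0.32 (SD, n = 5 cows), or 2.79-fold below the reference. Cow means ran from -1.91 to -1.12, so no cow came near 0. On 27 of the 30 cow-days its ratio was in the lowest 10% of all tested probes. HSP90AB1, the constitutive cytosolic form, lay at -0.024 ± 0.080 and the endoplasmic HSP90B1 at -0.014 ± 0.10, both close to the reference. The HSP90B1 mean came from -0.49 with liver in Cy3 and 0.48 with liver in Cy5, with the same sign in 6 of 30 pairs. For HSP90AB1 these were 0.19 and -0.24, with the same sign in 15 of 30 pairs. In the second table HSP90AB1 had a mean of 1.18, one of the 8 that differed by over 1, while HSP90AA1 stayed below 0 on all 4 samples there.

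HSPA8, the constitutive HSP70 of the cytosol, was represented by 2 clones with means of -1.30 ± 0.31 and -0.67 ± 0.089 (SD, n = 5 cows). HSPA4, an HSP110-type exchange factor, lay at -0.82 ± 0.22, and HSPA14, a ribosome-bound HSP70, at -0.41 ± 0.15. The stress-inducible HSPA1A lay at -0.034 ± 0.15, with single samples between -0.63 and 0.68. Its mean came from -0.29 with liver in Cy3 and 0.23 with liver in Cy5, with the same sign in 10 of 30 pairs. In the second table it was above 0 on all 4 samples, with a mean of 0.42. HSPA9, the mitochondrial HSP70, had a mean of -0.0065 ± 0.33, and HSPA13, a microsomal member, 0.18 ± 0.21. Within this family, 4 of 7 clones were below 0 in all 5 cows and none was above 0 in all 5.

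All 4 measured TRiC subunits were below the reference in every cow. CCT8 had a mean log2 ratio of -0.96 ± 0.18, CCT2 of -0.79 ± 0.099, CCT4 of -0.77 ± 0.18 and CCT3 of -0.70 ± 0.22 (SD, n = 5 cows each). The cow means of the 4 subunits spanned -1.21 to -0.48. Each of the 4 was also below 0 on all 4 samples of the second table. Over all tested probes 27.5% were below 0 in all 5 cows and 22.4% above 0 in all 5, and over the members the counts were 19 (28.8%) and 13 (19.7%), so the members as a whole were spread like the other clones. Of those 19 clones, 12 were below 0 on all 4 samples of the second table and 16 in its mean. Of the 13 above 0, 3 were above on all 4 samples and 7 in the mean.

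The mitochondrial chaperonin lay slightly above the reference. HSPD1 (HSP60) had a mean of 0.23 ± 0.22, and the 2 clones of its lid HSPE1 (HSP10) had 0.33 ± 0.14 and 0.14 ± 0.17 (SD, n = 5 cows). The first of these HSPE1 clones (BF039685) read -0.23 on average with liver in Cy3 and 0.89 with liver in Cy5. Among the DNAJ proteins, DNAJA3, the mitochondrial partner of HSP70, reached 0.74 ± 0.12, but in the second table its mean was -0.19, with 3 of 4 samples below 0. DNAJC21, a cytosolic factor of ribosome assembly, lay at -0.93 ± 0.30. Of the 22 DNAJ clones, 5 were below 0 in all cows and 5 above 0 in all cows. The 2 clones of DNAJB1, the stress-inducible HSP40, lay at 0.00041 ± 0.18 and -0.11 ± 0.14. The BAG clones stayed between -0.21 and -0.044 in the mean.

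Small heat shock proteins and isomerases were on both sides of the reference. HSPB8, a small heat shock protein that works with BAG3, had a mean of 1.09 ± 0.34 (SD, n = 5 cows), and its lowest single sample was 0.22. HSPB1 (HSP27) had 4 clones at 0.68, 0.55, 0.083 and -0.066, and the clone at 0.68 had a mean of -3.08 in the second table, so no level of HSPB1 is given for the gene. PPIA, cyclophilin A of the cytosol, lay at -1.26 ± 0.21, and on 26 of the 30 cow-days its ratio was in the lowest 10% of all tested probes. PPIB, the cyclophilin of the endoplasmic reticulum, lay at 0.52 ± 0.27, from 0.026 with liver in Cy3 and 1.06 with liver in Cy5. FKBP1A (FKBP12), the main cytosolic target of FK506, had 2 clones at -0.49 ± 0.35 and -0.50 ± 0.39, and FKBP2 of the endoplasmic reticulum lay at 0.28 ± 0.20. In the second table FKBP2 was below 0 on all 4 samples, with a mean of -0.24.

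**Figure D1:**
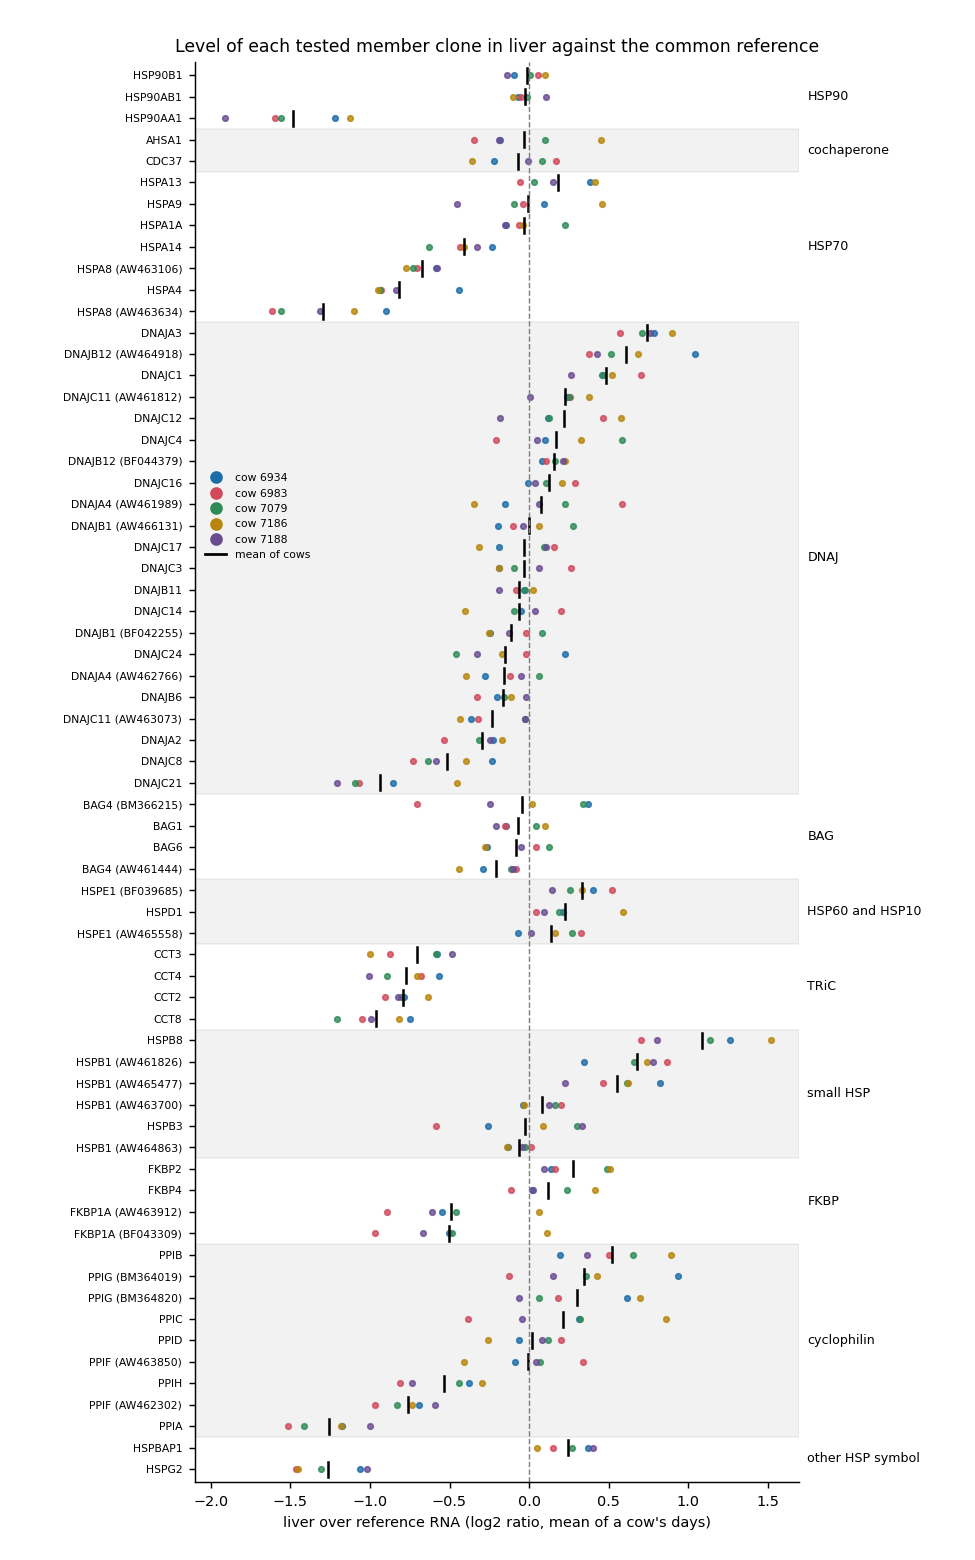
Log2 ratio of liver over reference RNA (x axis) for each of the 66 tested clones (rows, grouped by family); each point is 1 cow's mean over its days and the bar is the mean of 5 cows. The 4 TRiC clones, HSP90AA1, both HSPA8 clones and PPIA have all 5 cows below 0, and HSPB8 has all 5 above.

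Single liver samples of HSP90AA1, CCT2, CCT4, CCT8 and 1 HSPA8 clone were far below their own mean in cow 7186 on day -65 and cow 7188 on day 1. On other cow-days low readings coincided in part. In cow 7079 on day -30 HSP90AA1 read -1.96, the HSPA8 clone -2.21, CCT4 -1.67 and CCT8 -1.54, while CCT2 read -0.78. In cow 6983 on day -14 HSP90AA1 read -2.19, the HSPA8 clone -1.92, CCT2 -1.15, CCT4 -1.12 and CCT8 -1.28. HSP90AA1 had an SD of 0.89 over the 30 cow-days, at the 98.8th percentile of all tested probes. Its values ran from -4.23 in cow 7188 on day 1 to 0.27 in cow 7186 on day 14, with a median of -1.28. On day -65 the 5 cows stood at -1.30, -1.18, -1.26, -3.25 and -0.95 in the order of their numbers. Cow 7186 was alone at the bottom on that day, and cow 7188 was at the bottom on days 1 (-4.23) and 28 (-3.12).

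Of the 2 HSPA8 clones, AW463634 read -2.79 in cow 7186 on day -65, -2.72 in cow 7188 on day 1 and 0.15 in cow 7186 on day 14. CCT4 read -1.72, -2.76 and 0.15 on those 3 cow-days, CCT8 -2.64, -1.71 and 0.086, and CCT2 -1.66, -1.65 and -0.36. In cow 7188 on day 28, where HSP90AA1 read -3.12, this HSPA8 clone read -1.56, CCT4 -0.97 and CCT8 -1.26, nearer to their means, while CCT2 was low at -1.52. The HSPA8 clone had further low readings of -2.27 in cow 7079 on day -65, -2.21 in the same cow on day -30 and -2.21 in cow 6983 on day -30, where HSP90AA1 read -1.26, -1.96 and -1.10. The other clone of HSPA8 (AW463106) read -0.95, -1.23 and -0.34, a much narrower range, and CCT3 read -0.51, -0.64 and -1.14. CCT3 is thus the only measured TRiC subunit whose reading was lower on day 14 of cow 7186 than on the other 2 cow-days.

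Both arrays of a pair carried the low readings. For HSP90AA1 in cow 7188 on day 1 the array with liver in Cy3 read -4.60 and the one with liver in Cy5 read -3.86, and in cow 7186 on day -65 they read -3.56 and -2.95. CCT8 in cow 7186 on day -65 read -2.62 and -2.65. The high reading of cow 7186 on day 14 was less even, with HSP90AA1 at -0.35 and 0.89, and this is one of the 5 pairs whose arrays did not oppose. The spread over all tested probes (scaled median absolute deviation) was 0.63 in cow 7186 on day -65, 0.57 in cow 7188 on day 1 and 0.61 in cow 7186 on day 14, within the 0.24 to 0.92 of the other samples. By rank among all tested probes of the same sample, HSP90AA1 in cow 7186 went up and down, standing at percentiles 0.42, 34.95, 1.31, 28.4, 71.7, 6.93 and 2.96 from day -65 to day 49. In the second table, which holds other liver samples, cow 7079 on day -14 was the lowest of the 4 samples for HSP90AA1 (-1.73), the wider-ranging HSPA8 clone (-3.28), CCT2 (-2.64), CCT4 (-2.43) and CCT8 (-2.60), and the highest for CCT3 (-0.28).

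The mitochondrial chaperones also swung by cow-day. HSPA9 read -1.23 in cow 7186 on day -65, 1.704 in the same cow on day 1, and -1.60 and -1.73 in cow 7188 on days 1 and 28. HSPD1 read -1.01, 1.71, -1.35 and -0.90 on those 4 cow-days, and an HSPE1 clone (BF039685) -0.58, 1.21, -0.70 and 0.043. On day 1 the HSPD1 values of the 5 cows were 0.24, 0.35, 0.57, 1.71 and -1.35, so the groups of cows on any 2 days overlapped widely.

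Other members hardly varied. DNAJB6, a DNAJ protein that suppresses aggregation, had an SD of 0.15 over cow-days, and HSPA1A had 0.24, at the 7.92th percentile of all tested probes. The median SD of the 66 member clones was 0.40 against 0.41 for all tested probes. Of the members, 6 were above the 90th percentile and 8 below the 10th.

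**Figure D2:**
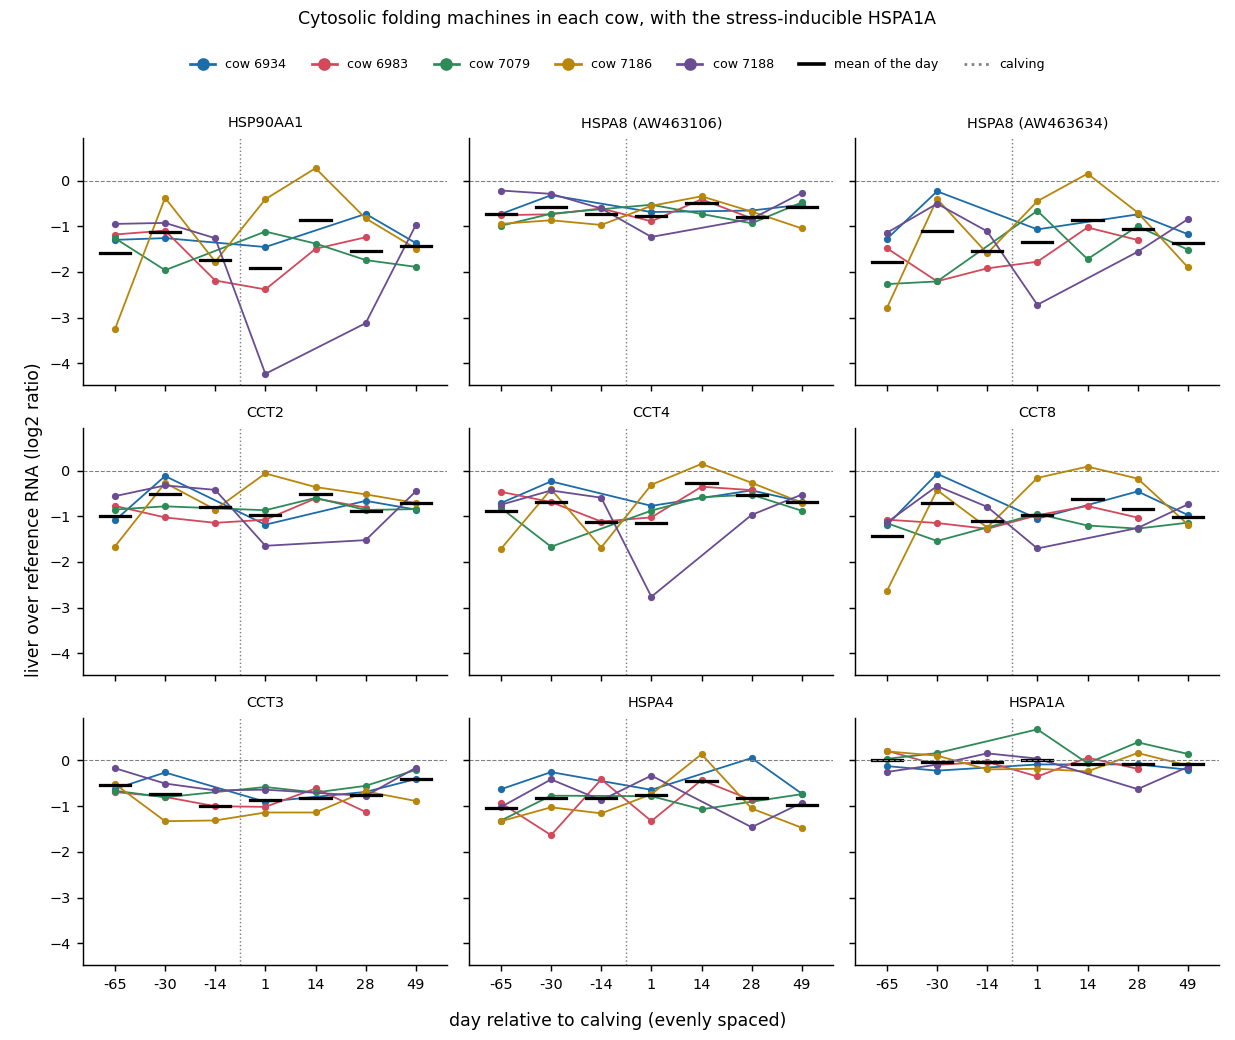
Log2 ratio over reference RNA (y axis) in each cow on each day (x axis, evenly spaced); lines join the measured days of a cow and black bars are day means. HSP90AA1, 1 HSPA8 clone, CCT2, CCT4 and CCT8 dip in cow 7186 on day -65 and cow 7188 on day 1, while HSPA1A stays between -0.63 and 0.68.

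Over the 7 days the family medians moved by 0.054 to 0.56 log2 units. The day estimate of each gene against the mean of its 7 days was summarised as a family median, a description that carries no test. The DNAJ median stayed within 0.054 log2 units over all days (18 genes), the narrowest span. The HSP90 median ranged from -0.23 on day -14 to 0.33 on day -30, and the TRiC median from -0.19 on day -14 to 0.33 on day 14, where 2 of 3 cows in the larger table are from pairs that did not oppose. The FKBP and cyclophilin medians stood at 0.22 and 0.19 on day -30, -0.26 and -0.19 on day 1, and 0.11 and 0.11 on day 28. The HSP70 median was lowest on day -65 (-0.19) and highest on day 14 (0.20), and the small heat shock proteins went from 0.20 on day -65 to -0.10 on day 49. That last median rests on 3 genes. HSPB1 entered it by the clone with a mean of 0.68, which was -3.08 in the second table. HSPB3 read 0.85 with liver in Cy3 and -0.88 with liver in Cy5 on average.

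**Figure D3:**
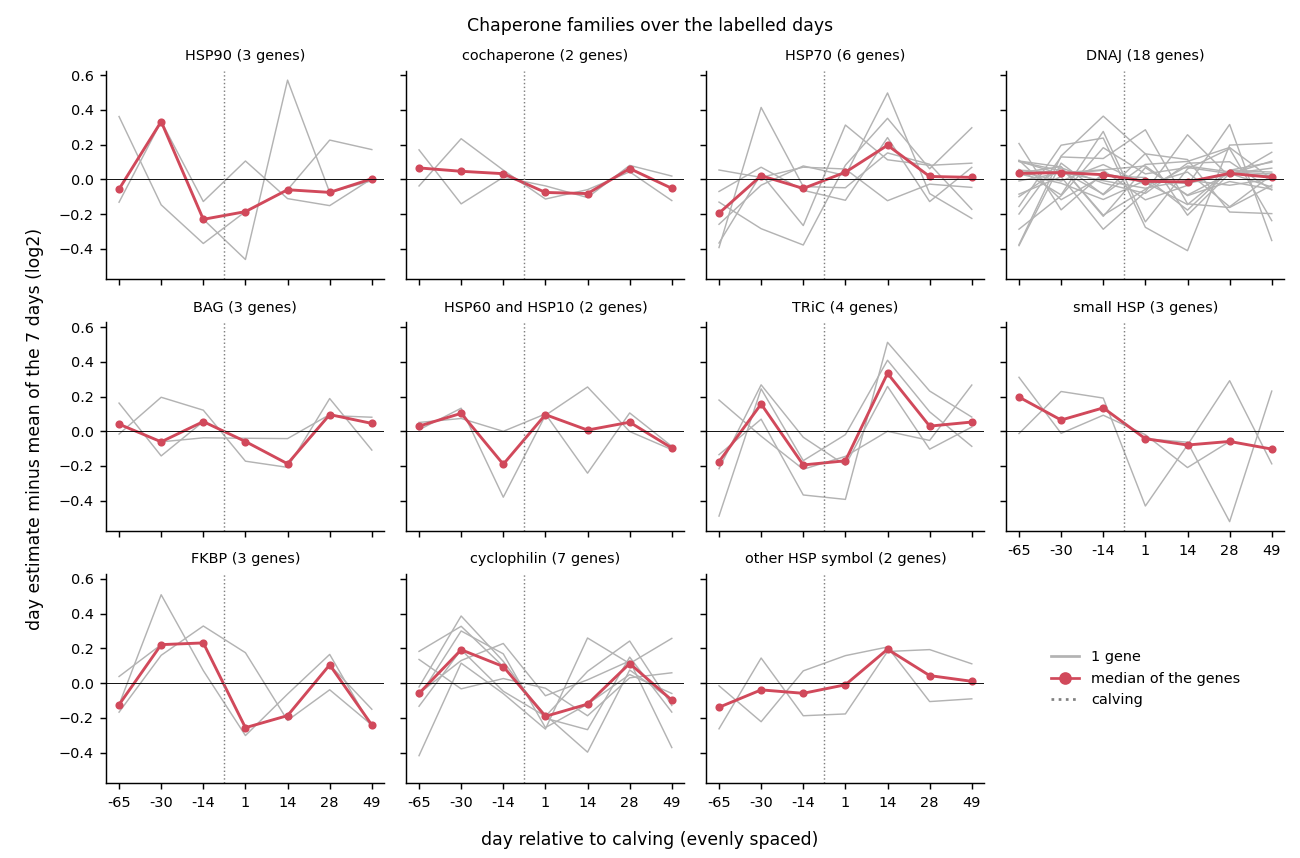
Day estimate of each gene minus the mean of its 7 days (y axis, log2) against the day (x axis, evenly spaced); grey lines are genes and red points family medians. The FKBP and cyclophilin medians are highest before calving and lowest on day 1, and the DNAJ median stays within 0.054.

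The test over all 7 days, limma's moderated F test with cow as a block and Benjamini-Hochberg adjustment over 5280 probes, called none of the 66 members. It called 0.0189% of all tested probes. No member had an unadjusted p under 0.05 either, against 5.21% of all probes, and the smallest adjusted p was 0.960, for a clone of FKBP1A. The test thus did not set any member's day means apart from the variation left after day and cow were fitted. That does not show that the day means are equal, and what follows are differences that did not pass.

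Day 1 was set against day -30 to ask how the fresh cow differs from the cow in the dry period, with 5 cows on both sides. No member passed the adjusted threshold (0.0189% of all tested probes did), and the smallest adjusted p among members was 0.414. At an unadjusted p under 0.05, 9 member clones of 8 genes were lower on day 1 and none was higher. That is 13.6% of the members, against 7.08% of all probes lower, 1.29% higher and 8.37% either way. The median difference over member genes was -0.091, beside -0.056 over all tested probes, and 40 of 66 clones were below 0, beside 57.1% of all tested probes. The interval of a single member reached 0.45 log2 units to each side in the median clone, from 0.24 to 1.16. These intervals are not adjusted for the number of probes, and differences above that median width did not pass the adjusted threshold either.

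Isomerases made up 6 of those 9 clones, in 5 genes, and 13 of all 66 tested clones. FKBP1A read -0.12, -0.76, 0.45, 0.35 and 0.15 on day -30 and -1.23, -1.24, -0.68, 0.31 and -1.15 on day 1 in its first clone (AW463912), in the order of the cow numbers. Every cow was lower on day 1, least so in cow 7186, and 3 of the 5 day 1 values lay below the lowest of day -30, while the other two lay within its range. The fitted difference was -0.81, with a 95% interval of -1.36 to -0.26 and limma's adjusted p of 0.434. The second clone (BF043309) gave 0.14, -0.80, 0.60, 0.38 and 0.010 on day -30 and -1.32, -1.38, -0.85, 0.48 and -1.31 on day 1. In that clone cow 7186 went the other way, and the fitted difference was -0.94 (95% interval -1.56 to -0.32, limma's adjusted p 0.414).

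The other isomerases with an unadjusted p under 0.05 were FKBP4 (FKBP52), the HSP90 partner of steroid receptors, and the cyclophilins PPIB, PPIC and PPIH. PPIB read -0.078, 0.52, 1.27, 1.89 and 0.51 on day -30 and 0.0080, 0.16, 0.44, 0.48 and 0.47 on day 1. The day 1 values were packed between 0.0080 and 0.48, and cow 6934 alone was not lower. Its fitted difference was -0.51 (95% interval -0.93 to -0.088, limma's adjusted p 0.525), and without cow 7186 it was -0.29. PPIH, a spliceosomal cyclophilin, differed by -0.56, PPIC by -0.59 and FKBP4 by -0.48, each lower in 4 of 5 cows, with adjusted p of 0.525, 0.581 and 0.581 in limma. With liver in Cy3 alone PPIC and PPIH differed by -0.88 and -0.85, and with liver in Cy5 alone by -0.30 and -0.26. Without cow 7079 FKBP4 differed by -0.31. PPIC is another of the clones whose mean differed by over 1 between the tables. PPIA differed by -0.38 and the 2 clones of PPIG, a nuclear cyclophilin, by -0.38 and -0.58, all with intervals that include 0. Single cows moved these values, as PPIA stood at -0.71 without cow 7186 and -0.18 without cow 6934. The first PPIG clone stood at -0.80 without cow 6983, -0.23 without cow 7186 and -0.045 without cow 7188, and the second at -0.37 without cow 7188. FKBP2, with 0.015, and PPID, with 0.0038, were the isomerases nearest to 0.

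The isomerase group pools FKBP and cyclophilins and was not among the families fixed beforehand, so its median is a description only. Over its 10 genes the median difference was -0.43, with 8 below 0, beside 57.1% of all tested probes below 0. PPIF was counted by its clone at -0.20, while its other clone gave 0.27. The median was -0.32, -0.22, -0.64, 0.043 and -0.56 in the 5 cows in the order of their numbers. Cow 7186 was thus the only cow above 0, and it also had the highest reading of both FKBP1A clones on days -14 and 1. The median was -0.72 with liver in Cy3 alone (10 of 10 genes below 0) and -0.19 with liver in Cy5 alone (6 of 10). Over the same days the DNAJ genes gave a median of -0.0058, the HSP70 genes 0.052, the HSP90 genes -0.23 and the TRiC genes -0.36.

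Outside the isomerases, HSPB8 read 1.66, 0.43, 1.41, 1.65 and 1.43 on day -30 and 0.47, 0.22, 1.44, 0.79 and 0.36 on day 1. It was lower in 4 of 5 cows and slightly higher in cow 7079, with a fitted difference of -0.66 (95% interval -1.16 to -0.16, limma's adjusted p 0.488). When each array was divided by its median absolute deviation the difference was -1.40 of those units, which cannot be set against log2 units. BAG1, an exchange factor of HSP70, differed by -0.37, and by -0.66 to -0.078 over the processing alternatives. DNAJB12 clone AW464918 had a mean of 0.61 in the larger table and -0.42 in the second. In the larger table it read 1.11 with liver in Cy3 and 0.087 with liver in Cy5. It differed by -0.47, which was -0.27 without cow 7079 and -0.31 without cow 7186. The other DNAJB12 clone (BF044379) differed by -0.19. The stress-inducible genes gave small differences of the other sign, at 0.048 for HSPA1A and 0.10 and 0.24 for the 2 clones of DNAJB1. Without cow 7079 HSPA1A stood at -0.069 and the first DNAJB1 clone at -0.055. HSP90AA1 differed by -0.79, with an interval from -1.96 to 0.37, and by -0.17 without cow 7188. TRiC subunits lay between -0.46 and -0.12, and the family median was 0.41 in cow 7079 and -1.34 in cow 7188. Without cow 7188 the TRiC median went from -0.36 to -0.054, with 2 of 4 subunits below 0.

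Marker genes of other cell types were compared over the same days, where 57.1% of all tested probes were below 0. Of 11 macrophage genes 9 were below 0, with a median of -0.41, and of 11 stellate cell and matrix genes 10, with a median of -0.43. Of the 6 hepatocyte genes 4 were below 0, with a median also at -0.41. The summed level of the macrophage genes, as a mean log2 ratio per sample, ran from 0.99 to 2.54 on day -30 and from 1.19 to 1.46 on day 1, and that of the matrix genes from -2.22 to -0.78 and from -2.31 to -1.25. Of the 4 lymphocyte and neutrophil genes 3 were below 0 (median -0.25), of 4 endothelial genes 2 (-0.029) and of 3 bile duct genes 1 (0.14). None of these genes was called, and no erythroid gene was measured. Their part in the differences of the chaperones was not tested.

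**Figure D4:**
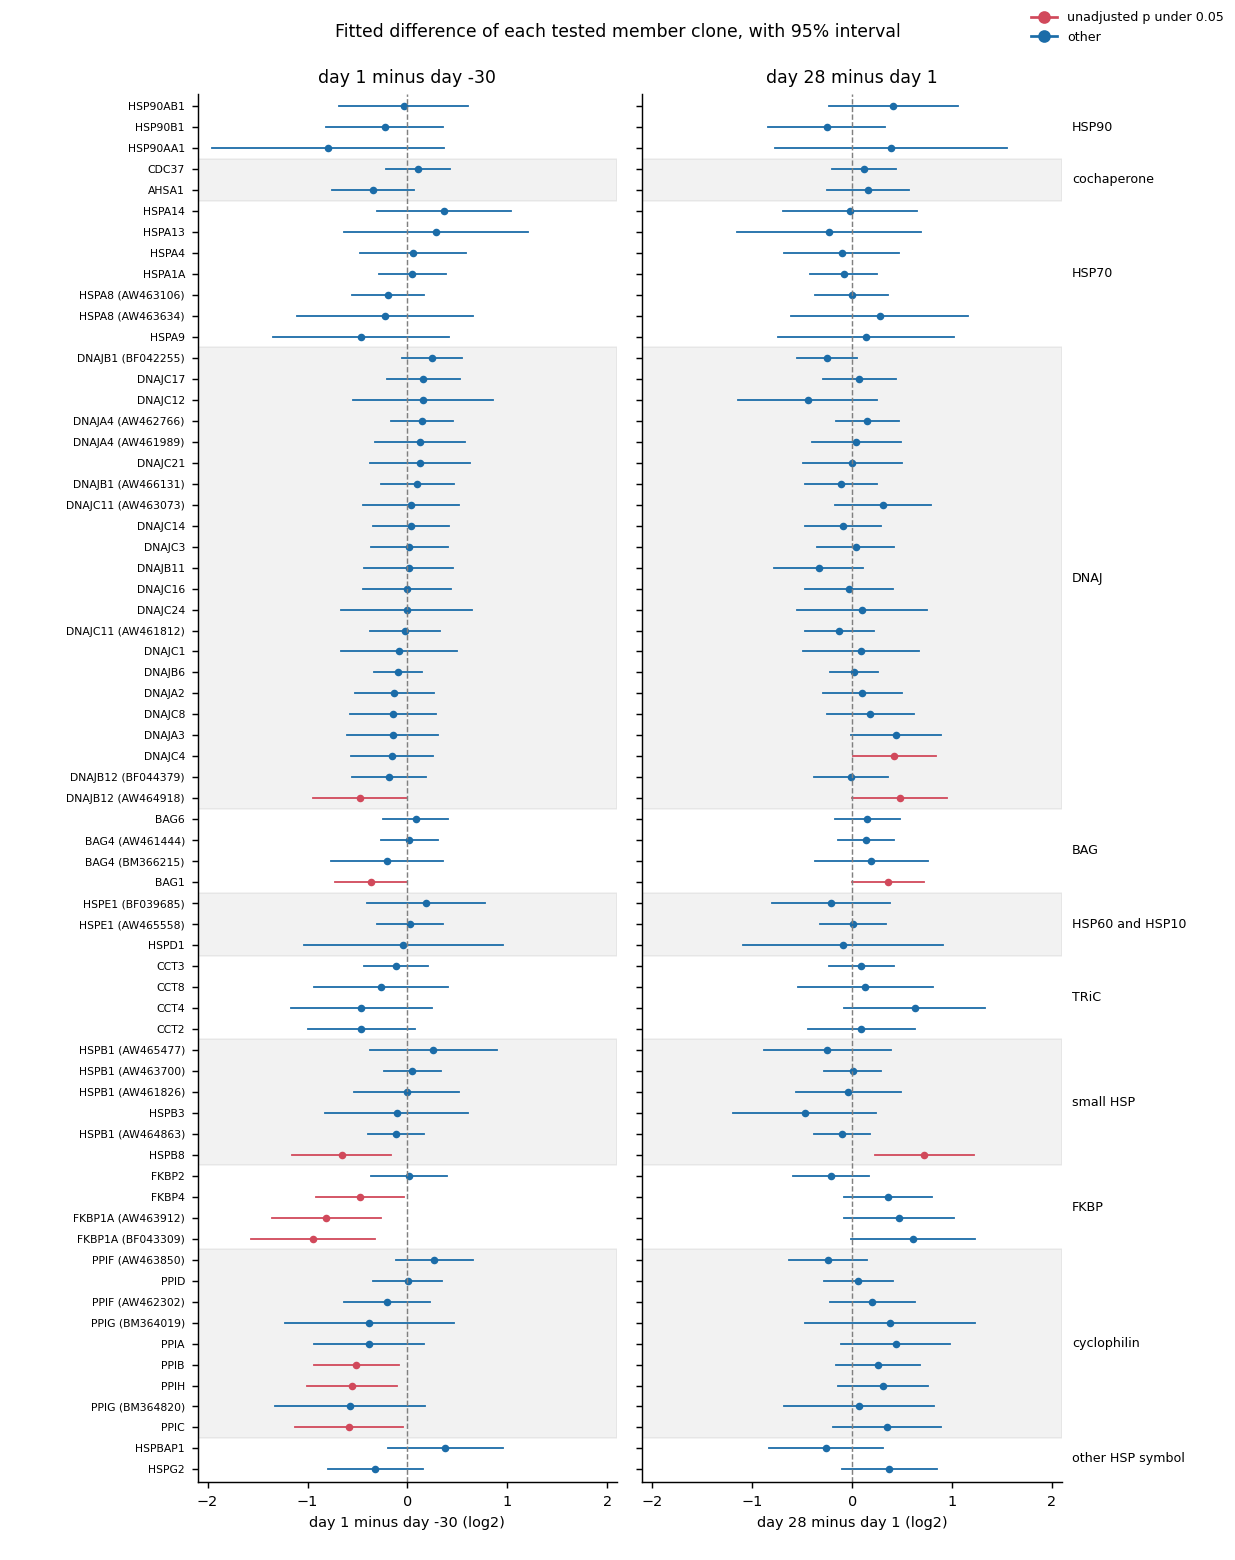
Fitted log2 difference (x axis) of each of the 66 tested clones (rows) for day 1 minus day -30 (left) and day 28 minus day 1 (right), with 95% intervals; red marks an unadjusted p under 0.05. All 9 red clones on the left lie below 0 and all 4 on the right above 0, and none passes after adjustment.

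Day 28 against day 1, from the fresh cow into lactation, gave no member past the adjusted threshold, as for all probes (0%). At an unadjusted p under 0.05 there were 4 member clones, all higher on day 28, or 6.06% against 5.15% of all probes in that direction, 2.67% in the other and 7.82% either way. The smallest adjusted p was 0.516. This comparison shares the day 1 samples with the one before, so opposite signs in the 2 are built in. HSPB8 read 1.98, 1.27, 1.33, 1.82 and 0.50 on day 28 and differed from day 1 by 0.72 (95% interval 0.22 to 1.22, limma's adjusted p 0.516), higher in 4 of 5 cows. BAG1 differed by 0.36, a DNAJB12 clone (AW464918) by 0.47 and DNAJC4 by 0.42. The other DNAJB12 clone (BF044379) differed by -0.013. Over the processing alternatives BAG1 ranged from 0.0755 to 0.65 and DNAJC4 from -0.0048 to 0.85. BAG1 stood at 0.15 without cow 7079 and 0.55 without cow 7186. DNAJB12 clone AW464918 stood at 0.73 without cow 7188 and 0.31 without cow 7186. The FKBP1A clones gave 0.47 and 0.60 with intervals that include 0. In the isomerase group 9 of 10 genes were above 0 (median 0.33), while 38.2% of all tested probes were below 0. With liver in Cy5 alone that median was -0.056, with 4 of 10 above 0, and with liver in Cy3 alone it was 0.50. CCT4 was higher in 5 of 5 cows, by 0.62, with an interval from -0.082 to 1.33, and by 0.33 without cow 7188. DNAJA3 was also higher in 5 of 5, by 0.43. The median over member genes was 0.092, beside 0.063 over all tested probes.

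**Figure D5:**
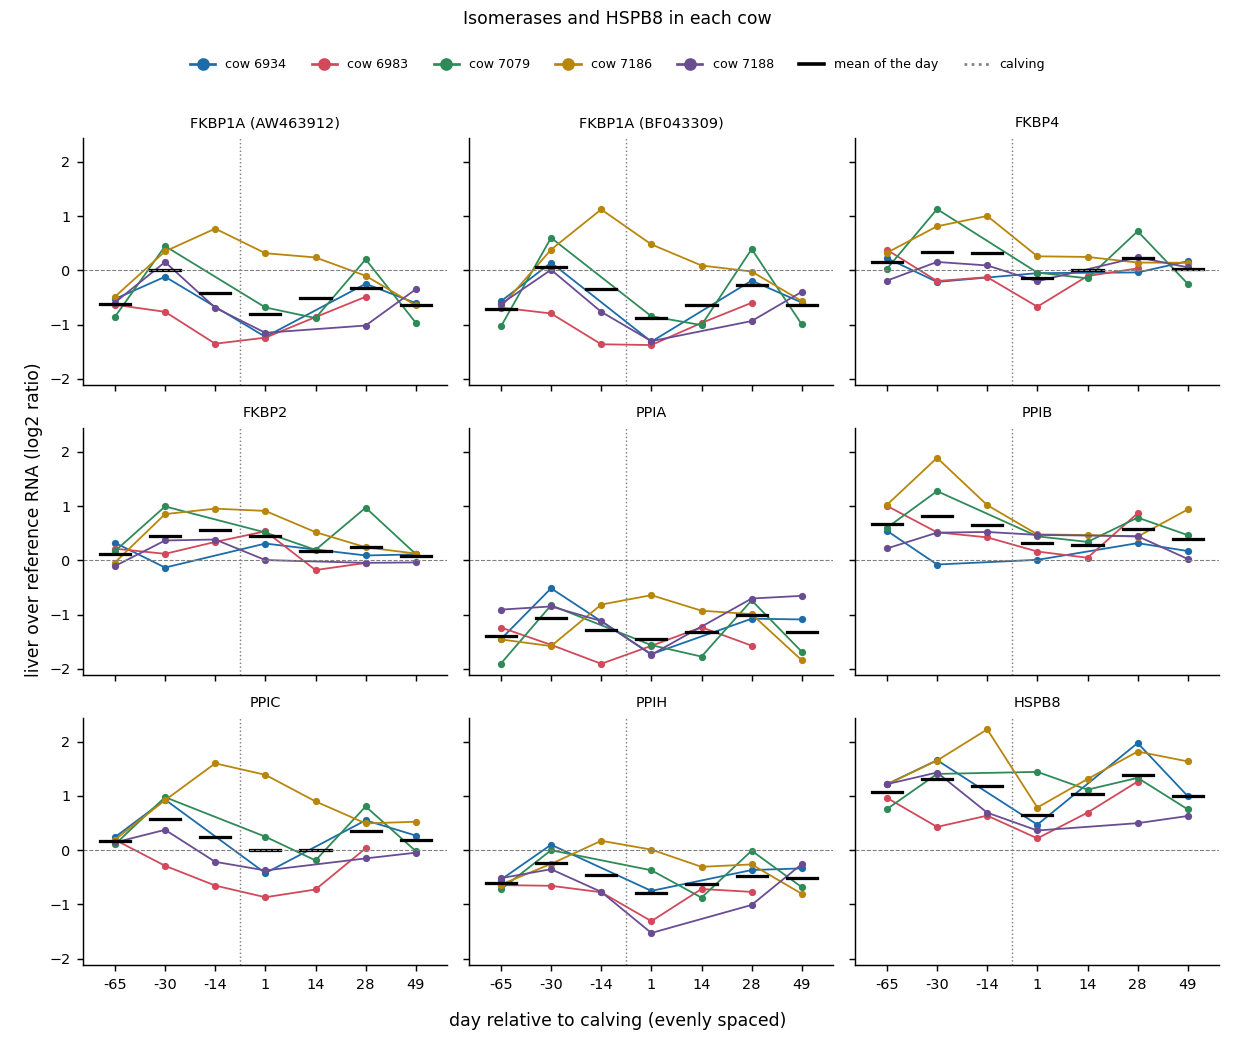
Log2 ratio over reference RNA (y axis) of the FKBP1A, FKBP4, FKBP2, PPIA, PPIB, PPIC, PPIH and HSPB8 clones in each cow on each day (x axis, evenly spaced); lines join the measured days of a cow and black bars are day means. Both FKBP1A clones show low day 1 values in 4 cows and 0.31 and 0.48 in cow 7186.

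The mean of days 14, 28 and 49 was set against the mean of days -65, -30 and -14 to compare lactation with the time before calving. No member passed the adjusted threshold (0% of all probes did), and the smallest adjusted p was 1.00. At an unadjusted p under 0.05, PPIB (-0.34) and FKBP2 (-0.27) were lower and HSPA14 (0.50) was higher, each in 4 of 5 cows. Lower members were 3.03%, against 2.48% of all probes, and higher members 1.52%, against 1.38%, with 3.86% of all probes either way. Of the 10 isomerase genes 8 were below 0 (median -0.19), beside 52.2% of all tested probes, and the cow medians lay between -0.24 and -0.047. All 4 TRiC subunits were above 0, from 0.054 (CCT2) to 0.42 (CCT4), with cow medians between -0.20 and 0.70. CCT2 turned to -0.016 with liver in Cy3 alone, to -0.0097 without cow 6983 and to -0.050 without cow 7186, and CCT4 stood at 0.18 without cow 7186. The interval of the median member reached 0.30 log2 units to each side.

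Clones of the same gene did not always follow each other. Of 11 genes with more than 1 tested clone, the clones had the same sign in 7 for day 1 against day -30, in 5 for day 28 against day 1 and in 7 for lactation. FKBP1A and DNAJB1 gave the same signs in all 3 comparisons, while the PPIF clones gave -0.20 and 0.27 for day 1 against day -30. Dyes mattered for some clones too. The 2 arrays of a pair differed in the median clone by 0.54 among members and 0.64 among all tested probes, and the HSPB3 clone read 0.85 with liver in Cy3 and -0.88 with liver in Cy5 on average, with the same sign in 5 of 30 pairs.

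Of 55 further chaperone genes that the symbol rule does not catch, 26 were tested and none was called in any comparison. On day 1 against day -30, 16 of these 26 were below 0 (median -0.073), and 3 had an unadjusted p under 0.05, all lower: BTF3 and HSBP1, both with an unadjusted p of 0.040, and NUDC at 0.016. HSF1, the transcription factor that switches on the heat shock response, differed by 0.072, and HYOU1, an HSP110-type chaperone of the endoplasmic reticulum, by -0.11. On day 28 against day 1, BTF3 (0.51) and NUDC (0.52) were higher and GRPEL2, a mitochondrial nucleotide exchange factor, was lower (-0.72), again without passing the adjusted threshold. TXNDC9, a modulator of TRiC, differed by 0.44 between lactation and the time before calving.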

How the data were processed

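Each deposited spot value is a log2 ratio between the dye channels, as the deposited tables show. Per the labels, slides were scanned on a Scanarray 4000 and read with GenePix 4.0. How the authors filtered spots, corrected background or normalized is not stated in the material at hand. The tables hold 60 arrays (30 cow-days, 14607 to 16288 measured rows an array) and 8 arrays (4 cow-days), and array medians of the larger table ran from -0.948 to 0.643. Channel intensities were not used, so signal over background is unknown.

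Ratios with liver in Cy3 were turned in sign, arrays were median-centred, the 2 spots of a clone were averaged (r = 0.747), and the 2 exchanged arrays of a cow-day were averaged and counted once. Clone names came from the platform annotation, updated by gene ID through RefSeq (ARS-UCD2.0) for 5686 of 5693 clones, and 72 clones with several symbols were left unnamed. After requiring 3 cows on every day, 5280 probes remained. limma 3.58.1 in R 4.3.3 fitted day and cow, since the labels name the same animals on each day. P-values are 2-sided and adjusted over all tested probes. They set a difference against the variation left after day and cow are fitted, pooled over the 7 days. The second table was described, not tested. The fit was tested on simulated data.

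The members and gene lists were chosen with earlier results of these data known. By rule, clones named with values were the smallest day-effect p of each family, up to 5 members each way per comparison by unadjusted p with at most 1 cow opposed, the 8 largest SDs, and 31 core genes, of which 20 were measured. PPIC, PPID, DNAJA3, DNAJC21 and DNAJB6, and any other member outside that rule, were added after their values were seen. Family medians use 1 clone a gene, the one with most measured samples. Ties went to the clone whose name came first in alphabetical order, as for PPIF and HSPB1, whose clones did not all share a sign. The isomerase group pools the FKBP and cyclophilin families and was not among the families fixed beforehand. Alternatives covered the cow block, centring, scaling, dye orientation, filter, weights, moderation, days in the fit, pairs that did not oppose, and each cow left out.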

Additional observations from a re-analysis of the deposited data

Results flagged for a closer look

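A sample was singled out when its gap to the nearest other cow of the same day passed Dixon's 95% critical value. The scan covered the 46 named clones on the 5 days with 4 or 5 cows, 230 groups in all, and 24 had such a sample. Chance flags about 1 in 20 independent groups, but these clones were named partly for a large spread or a small p and share the same liver samples, so that share is no yardstick for the 24. Cow 7186 held 11 of them, cow 7079 6, cows 6934 and 7188 3 each and cow 6983 1.

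Cytosolic folding machines stood out in cow 7186 on day -65, where HSP90AA1 read -3.25, CCT8 -2.64 and CCT4 -1.72. In the same sample DNAJC24, a DNAJ protein of diphthamide synthesis, read -1.61 and DNAJC1 -0.11. DNAJC24 also stood apart in cow 7079 on day -30 (-1.33) and in cow 7188 on day 1 (-0.89).

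On day 1, cow 7186 was the high sample for BAG1 (0.42), the second FKBP1A clone (0.48) and PPIA (-0.64). That FKBP1A clone was also low in cow 7079 on day -65, at -1.04. On day -30, HSP90B1 was high in cow 7186 (1.17), HSPA14 low in cow 7079 (-1.82) and HSPB8 low in cow 6983 (0.43).

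DNAJB1 stood apart in 1 clone in cow 7079 on day 1 (1.14) and in the other in cow 6934 on day -65 (-0.34) and cow 7186 on day -30 (-0.45). On day 28, BAG1 (0.86) and FKBP2 (0.97) were high in cow 7079, a PPIG clone (1.36) and an HSPB1 clone (0.82) in cow 6934, and another HSPB1 clone (0.39) in cow 7188. On day 49, yet another clone of HSPB1 was high in cow 7186 (1.21) and FKBP2 low in cow 7188 (-0.040).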

How the results depend on the processing

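No member passed the adjusted threshold under any of the 17 alternatives to a comparison or the 16 to the day effect. The smallest adjusted p of a member ranged over them from 0.101 to 0.862 for day 1 against day -30, from 0.146 to 0.913 for day 28 against day 1, from 0.264 to 1.00 for lactation, and from 0.0647 to 1.00 for the day effect, the lowest with array weights, whose estimation did not converge. The median over member genes moved for day 28 against day 1 from 0.092 to 0.288 with liver in Cy3 only and -0.037 with liver in Cy5 only. With scaled arrays it was 0.0018, in units of the median absolute deviation and not log2 units. Without centring it was 0.034 for day 1 against day -30 (-0.091 centred) and 0.114 for lactation (-0.031 centred). Of 46 named estimates, 19, 20 and 16 in the 3 comparisons kept their sign under all 17 alternatives. With each cow left out the median over member genes ranged from -0.189 to -0.0024 for day 1 against day -30 (the latter without cow 7188), from 0.051 to 0.122 for day 28 against day 1, and from -0.078 to 0.017 for lactation. Cows pair the samples, and without the replicate block the medians were -0.091, 0.092 and -0.024, with 4, 1 and 1 members at an unadjusted p under 0.05 in place of 9, 4 and 3. Over all probes, calls went from 1 to 195 for the day effect with array weights, from 1 to 10 for day 1 against day -30 with scaled arrays, and from 0 to 6 for day 28 against day 1 with liver in Cy3 only. The causes were not tested.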
